A study of Mus musculus with 11 samples.

Results

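The keratin and epidermal cluster genes are here the protein-coding genes of mouse chromosomes 1 to 19 whose symbols begin with Krt and a number, Krtap, Sprr or Lce. They number 131 of 21418 protein-coding genes of these chromosomes: 51 keratins, 46 keratin-associated protein (Krtap) genes, 16 small proline-rich protein (Sprr) genes and 18 late cornified envelope (Lce) genes. All but 2 fall into 10 clusters in which neighbours lie under 100 kb apart; Krtap12-1 on chromosome 10 and Krtap20-2 on chromosome 16 stand alone. The members were counted in chromatin immunoprecipitation sequencing (ChIP-seq) libraries of the histone variants H3.3 and MacroH2A2.

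The 11 libraries came from KH2 mouse embryonic stem (ES) cells, strain 129 X C57bl/6, and from mouse embryonic fibroblasts (MEFs). An HA-tagged histone was expressed from a doxycycline (Dox)-inducible cassette at the Col1a1 locus, with the M2rtTA transactivator at ROSA26, and was precipitated with anti-HA. HA-H3.3 was followed in ES cells at 3 and 6 h of Dox at 2 µg/ml. HA-tagged MacroH2A2 (HA-Macro) was followed in ES cells without Dox and at 3, 6 and 12 h, and in MEFs at 3, 6 and 12 h. Anti-MacroH2A2 libraries of ES cells and MEFs, each labelled as combining 2 replicates, were made with an antibody to the variant itself. The labels give these as parental KH2 ES cells and wild type MEFs without treatment, whereas legends of the study describe cells that carry the tagged variant, both before Dox and with it, so the cells and their Dox state are uncertain. ES cells were cultured on feeder fibroblasts that were removed by pre-plating, and the HA-Macro MEFs were passage 2 cells from chimeric embryos, kept by puromycin selection for the ES-derived cells. The HA-Macro ES library without Dox serves as the background of the anti-HA precipitation. The study reports trace promoter signal in it and attributes this to likely leaky expression of the tagged variant. There is no MEF library without Dox, so the anti-HA background of MEFs is not known.

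Keratins are the intermediate filament proteins of epithelia, and pair as one type I with one type II chain. In the mouse the type I genes, except Krt18, lie on chromosome 11 and the type II genes on chromosome 15. Keratin-associated proteins form the matrix between the keratin filaments of hair, while Sprr and Lce proteins are cross-linked into the cornified envelope of the outer epidermis. H3.3 is an H3 variant deposited outside replication, and is known for its presence at active promoters and gene bodies. MacroH2A2 is an H2A variant with a large non-histone domain, and is best known from silent chromatin. Neither ES cells nor fibroblasts are known to express the hair and cornification genes, whereas Krt8 and Krt18, the pair of simple epithelia, are familiar from early embryonic cells.

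The promoters of 8 members that recur in the results are printed here from 130 bases before to 19 bases after the start base of the gene (mm9, GENCODE vM1), 5′ to 3′ on the gene's strand. They are shown because they range from rich to poor in CG dinucleotides, which bears on the choice of genes they are compared with. CG dinucleotides and the hexamer TATAAA are in capitals. The stretches are chr15:101858517-101858666 (plus strand) for Krt18, chr11:100122324-100122473 (minus strand) for Krt17, chr11:99105380-99105529 (minus strand) for Krt222, chr15:101770736-101770885 (minus strand) for Krt79, chr11:99505384-99505533 (minus strand) for Krtap4-7, chr11:99444949-99445098 (minus strand) for Krtap1-4, chr3:92289797-92289946 (minus strand) for Sprr1a and chr3:92822963-92823112 (minus strand) for Lce1m.
Krt18: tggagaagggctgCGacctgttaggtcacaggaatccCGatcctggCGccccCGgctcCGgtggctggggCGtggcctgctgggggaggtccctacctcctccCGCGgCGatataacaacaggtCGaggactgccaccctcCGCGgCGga
Krt17: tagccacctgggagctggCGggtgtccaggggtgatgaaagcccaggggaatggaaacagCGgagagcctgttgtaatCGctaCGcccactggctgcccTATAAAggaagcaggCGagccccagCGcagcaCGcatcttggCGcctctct
Krt222: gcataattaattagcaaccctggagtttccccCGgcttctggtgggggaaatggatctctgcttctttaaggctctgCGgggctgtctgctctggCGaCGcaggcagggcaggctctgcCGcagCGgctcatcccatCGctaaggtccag
Krt79: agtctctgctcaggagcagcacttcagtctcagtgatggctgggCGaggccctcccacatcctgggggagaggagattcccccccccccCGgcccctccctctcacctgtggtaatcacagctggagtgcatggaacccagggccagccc
Krtap4-7: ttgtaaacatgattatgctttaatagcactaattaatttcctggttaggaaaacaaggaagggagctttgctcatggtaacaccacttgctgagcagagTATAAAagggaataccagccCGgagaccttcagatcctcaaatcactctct
Krtap1-4: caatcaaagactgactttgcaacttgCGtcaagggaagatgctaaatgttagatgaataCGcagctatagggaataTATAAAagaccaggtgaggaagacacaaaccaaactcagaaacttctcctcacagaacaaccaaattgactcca
Sprr1a: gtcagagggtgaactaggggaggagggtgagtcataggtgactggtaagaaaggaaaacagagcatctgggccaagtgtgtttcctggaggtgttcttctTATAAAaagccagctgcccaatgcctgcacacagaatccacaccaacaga
Lce1m: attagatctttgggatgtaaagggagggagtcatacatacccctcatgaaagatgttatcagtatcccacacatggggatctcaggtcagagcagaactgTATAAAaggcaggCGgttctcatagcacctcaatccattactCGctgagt
The stretch of Krt18 held 13 CG dinucleotides, that of Krt17 held 8 and that of Krt222 held 7, and the other 5 held 0 to 2. No promoter of the 131 members reached a CpG observed over expected ratio of 0.6 over 600 bp either side of the transcription start site (TSS), against 44.5% of 21407 promoters of all protein-coding genes. The median ratio was 0.193 in the members and 0.543 in all. TATAAA was found on the gene's strand within the 50 bases before the TSS in 59 members (45%), against 3.13% of all promoters. On the other strand of the same 50 bases it was found in 0.763% of members and 1.01% of all. By family the hexamer was in 75% of Sprr, 58.7% of Krtap, 35.3% of Krt and 11.1% of Lce promoters. Because their CpG ratio sets the members apart from many genes, the 11881 protein-coding genes under 0.6 are given beside them in the comparisons of 2 libraries. The upper quartile of the members' ratio was 0.288, so this set is not matched to them. Differences from it are not adjusted for the CpG ratio.

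Libraries held 6488112 to 20541627 deposited intervals, and a 100 kb window held a median of 230 to 723 distinct intervals. The 7 HA-Macro libraries hold intervals of 150 bp, of which 3.27 to 6% repeated another; the other 4 hold intervals of 400 bp, of which 0.462 to 0.693% did. The share of intervals on chromosome Y was 0.112% in HA-Macro ES 3 h and 0.0219 to 0.0244% in the other HA-Macro ES libraries, so that the 3 h library stood apart among them. It was 0.0198 to 0.0226% in HA-Macro MEF, 0.102% and 0.0673% in HA-H3.3 ES at 3 and 6 h, 0.1% in anti-MacroH2A2 ES and 0.0423% in anti-MacroH2A2 MEF. At 6 h of HA-H3.3 the promoters of 6 ES cell markers held 14 to 60 intervals, with Pou5f1 and Sox2 highest at 60 and 53 and Dppa5a and Esrrb lowest at 14 each, and those of 6 fibroblast markers held 3 to 22, with Thy1 highest at 22. The ranges of the lists overlap, and the median promoter of all genes held 19. With 1 library per condition there is no replicate spread, so no p-value is given and a difference between conditions cannot be told apart from a difference between libraries. Brackets give 95% exact binomial intervals, which cover counting error only. In these cell populations fewer cells carrying a variant and less of it per cell cannot be told apart. Scaled values are shares of a library's own intervals, so ratios between Dox times or cell types are relative. They do not give the amount of a variant in the genome.

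A stretch of 73.4 kb, chr3:92019757-92093169, which holds Sprr2a1, Sprr2a2 and Sprr2a3, has to be read apart from the rest. More than 97% of the 32-base words in each of these genes occur elsewhere in the genome (97.2 to 99.2%). The stretch held 5 to 19 intervals in the 4 libraries with 400 bp intervals, 0.0214 to 0.0457 times the median window, but 727 to 1287 in the 7 HA-Macro libraries, 1.89 to 3.12 times the median window, the library without Dox included. Libraries of the same variant and cell type lay on both sides of this split, which followed the length of the intervals; its cause was not tested. Values of the Sprr cluster are therefore given with and without it.

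Across the 4 keratin clusters, H3.3 was scarcer than in their flanks. Flanks reach 500 kb to each side without any other cluster of members, and since these clusters lie in neighbouring pairs, 614, 614, 644 and 774 kb were left, with the stretch between a pair counted in the flanks of both. At 6 h of Dox the Krt222 to Krtap4-6 cluster (chr11:99094075-99527274, 24 members) had a density of 0.417 and its flanks of 1.09, in distinct intervals per kb per 1000000 distinct intervals of the library (IPKM). The neighbouring Krtap4-8 to Krt42 cluster (chr11:99641036-100131185, 25 members) held 0.399 and its flanks 1.17. On chromosome 15 the Krt80 to Krt75 cluster (chr15:101177875-101404335, 8 members) held 0.438 against 0.999, and the Krt6b to Krt18 cluster (chr15:101506465-101862457, 16 members) held 0.484 against 1.31. The keratin clusters thus formed gaps in neighbourhoods rich in H3.3, with log2 ratios of -1.39 [-1.46, -1.31], -1.55 [-1.62, -1.48], -1.19 [-1.28, -1.10] and -1.44 [-1.52, -1.37]. They were not poor in H3.3 against the genome as a whole, since each lay above the median 100 kb window, by 0.46 to 0.74 on the log2 scale. At 3 h the same 4 ratios were smaller, at -0.70, -0.79, -0.32 and -0.62. The library without Dox gave -0.20, -0.10, -0.03 and -0.16.

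In all, 5 of the 10 clusters lay at least 1.5-fold below their flanks in HA-H3.3 ES 6 h, where 16.5% of 24017 windows did so. The keratin clusters among them lie in neighbouring pairs with shared flanks, so they are not separate regions. Clusters spanned 52.8 to 490 kb and windows 100 kb, so here and below the shares of windows are not for regions of like size. The other cluster of the 5 was Krtap16-7 to Krtap11-1 on chromosome 16, at -0.84. The remaining chromosome 16 clusters, Krtap24-1 to Krtap8-2 and Krtap6-1 to Krtap6-3, lay at 0.07 and 0.11. The Lce6a to Lce1m cluster (chr3:92424003-92822982, 18 members) lay at -0.10. The Sprr2a1 to Sprr4 cluster lay at -0.42, and at -0.01 without the repeated stretch.

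**Figure D1:**
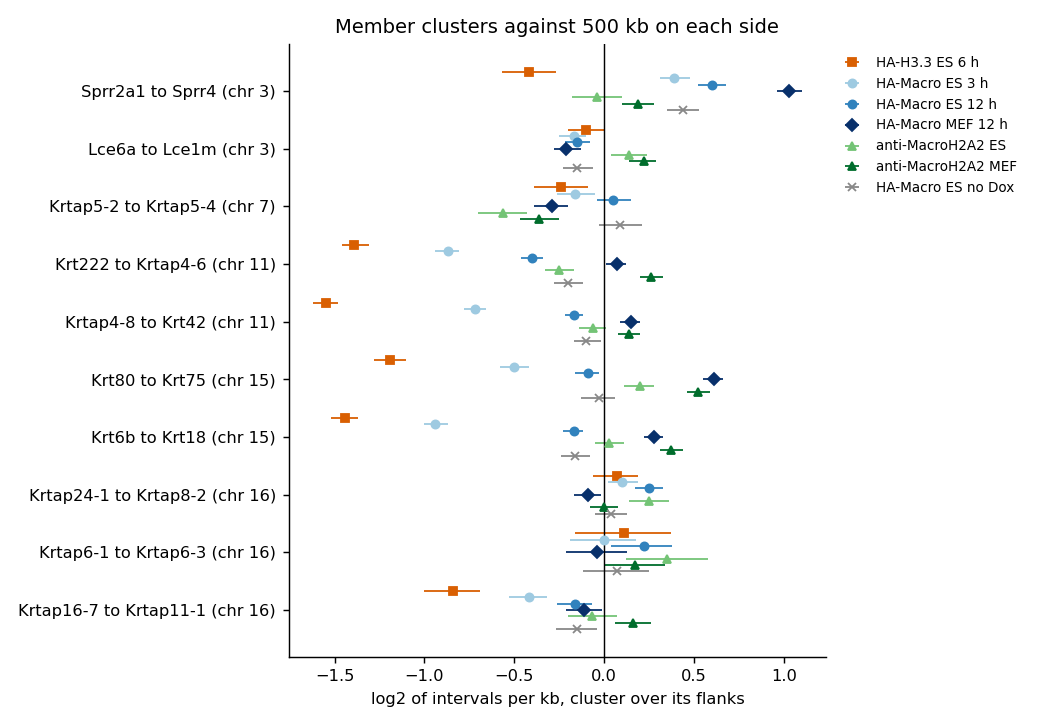
Log2 of the interval density in each of the 10 clusters over that in the flanks, 500 kb on each side without other clusters (x axis), for 7 of the 11 libraries (colours and markers); bars are 95% exact binomial intervals for counting error. The 4 keratin clusters sit at -1.19 to -1.55 in HA-H3.3 ES 6 h, and between -0.25 and 0.52 in the anti-MacroH2A2 libraries.

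The anti-MacroH2A2 libraries did not show gaps of this size. With this antibody the same 4 clusters lay at -0.25 [-0.33, -0.17], -0.06 [-0.14, 0.01], 0.20 [0.11, 0.28] and 0.03 [-0.05, 0.11] against their flanks in ES cells, and at 0.26 [0.20, 0.33], 0.14 [0.08, 0.20], 0.52 [0.46, 0.59] and 0.37 [0.31, 0.44] in MEFs. None of the 10 clusters was 1.5-fold above its flanks in ES cells (1.9% of windows were) or in MEFs (3.33%), and none was 1.5-fold below in ES cells (4.02%) or in MEFs (6.74%). The Krtap5-2 to Krtap5-4 cluster on chromosome 7 was the lowest, at -0.56 in ES cells and -0.36 in MEFs. Without its repeated stretch the Sprr cluster gave 0.38 in ES cells and 0.60 in MEFs, and the second value passes 1.5-fold.

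The Krt80 to Krt75 cluster, which holds Krt7, Krt80 and the hair keratins Krt81 and Krt86, carried the most MacroH2A2 of the 4 keratin clusters in most libraries. In HA-Macro ES 3 h Krtap4-8 to Krt42 held more, at 0.433 against 0.412 in distinct intervals per kb per 1000000. Against the median window Krt80 to Krt75 stood at 1.14 in anti-MacroH2A2 ES, 1.12 in anti-MacroH2A2 MEF and 1.41 in HA-Macro MEF 12 h, in log2 units, and at 0.22 in the library without Dox. The other 3 keratin clusters stood at 0.59 to 0.82, 0.55 to 0.69 and 0.68 to 0.76 in those libraries, and at 0.02 to 0.21 without Dox.

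**Figure D2:**
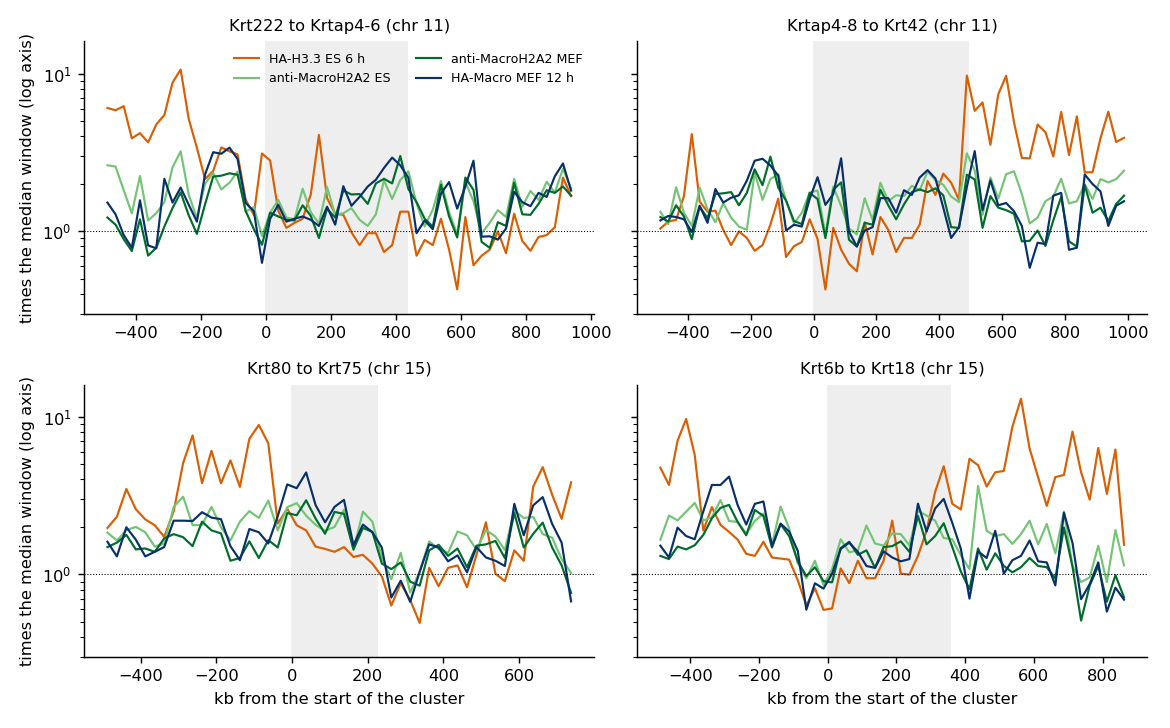
Intervals in 25 kb windows as times the median window (y axis, log scale) along the 4 keratin clusters and 500 kb on each side (x axis, kb from the start of the cluster; grey, the cluster). HA-H3.3 ES 6 h is high outside the grey areas and drops near their edges, while the 3 MacroH2A2 libraries lie at -0.25 to 0.61 (log2) against the flanks, highest in Krt80 to Krt75 in MEFs.

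HA-Macro in ES cells at 3 h of Dox also had gaps at the keratin clusters. This library and HA-H3.3 ES 3 h had similar shares of intervals on chromosome Y (0.112% and 0.102%), and whether the gaps go with that share was not tested. Anti-MacroH2A2 ES had a share of 0.1% and the 4 keratin clusters at -0.25 to 0.20. HA-H3.3 ES 6 h had 0.0673% and the clusters at -1.19 to -1.55. In HA-Macro ES 3 h, 3 of the 10 clusters lay at least 1.5-fold below their flanks (3.26% of windows did): Krt222 to Krtap4-6 at -0.87, Krtap4-8 to Krt42 at -0.72 and Krt6b to Krt18 at -0.94. Krt80 to Krt75 lay at -0.50. HA-H3.3 ES 3 h and HA-Macro ES 3 h both had a median of -0.29 and 7 of 10 clusters below their flanks. Of the windows, 55.2% in HA-H3.3 ES 3 h and 59.9% in HA-Macro ES 3 h were below. By 6 h the 4 keratin clusters had values of -0.59, -0.33, -0.36 and -0.44, and at 12 h of -0.40, -0.17, -0.09 and -0.17. The gap against the flanks was therefore smaller in each later library.

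The densities, which are shares of each library's own intervals, show the same order. The study reads such a course as relative enrichment, because the total tagged variant in the genome grows during induction. The Krt80 to Krt75 cluster held 0.459 IPKM without Dox, then 0.412, 0.535 and 0.640 at 3, 6 and 12 h. The Krt6b to Krt18 cluster held 0.421 and then 0.401, 0.491 and 0.548. The chromosome 11 clusters held 0.400 and 0.456 without Dox, 0.364 and 0.433 at 3 h and 0.460 and 0.571 at 12 h. Against the background library the 4, in the order Krt222 to Krtap4-6, Krtap4-8 to Krt42, Krt80 to Krt75 and Krt6b to Krt18, lay at -0.13, -0.07, -0.16 and -0.07 at 3 h, where the median window lay at -0.20 and 34.9% of windows above 0. At 12 h they lay at 0.20, 0.33, 0.48 and 0.38, where the median window lay at -0.09 and 42.4% above 0. From 3 to 12 h the log2 ratios were 0.63 [0.54, 0.73] for Krt80 to Krt75, 0.45 [0.37, 0.53] for Krt6b to Krt18, 0.40 [0.34, 0.46] for Krtap4-8 to Krt42 and 0.34 [0.26, 0.41] for Krt222 to Krtap4-6. Over 23772 windows the median was 0.06 and the 95th percentile 0.52, so Krt80 to Krt75 exceeded that percentile. The 3 h library is the HA-Macro library that stood apart on chromosome Y, and its part in these ratios was not tested. Against the 6 h library, the same 4 ratios were 0.26, 0.16, 0.12 and 0.14, where the 95th percentile of windows was 0.21.

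In MEFs there was no such course. The Krt80 to Krt75 cluster held 1.02, 0.919 and 0.971 IPKM at 3, 6 and 12 h, above every ES library. The other 3 keratin clusters held 0.579 to 0.635. The log2 ratio of 12 h over 3 h in the 10 clusters ran from -0.18 to 0.09. The Lce cluster held 0.288, 0.318 and 0.288, and the Krtap24-1 to Krtap8-2 cluster 0.340, 0.306 and 0.327, both below the 0.382 and 0.398 of the background library, which is of ES cells.

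**Figure D3:**
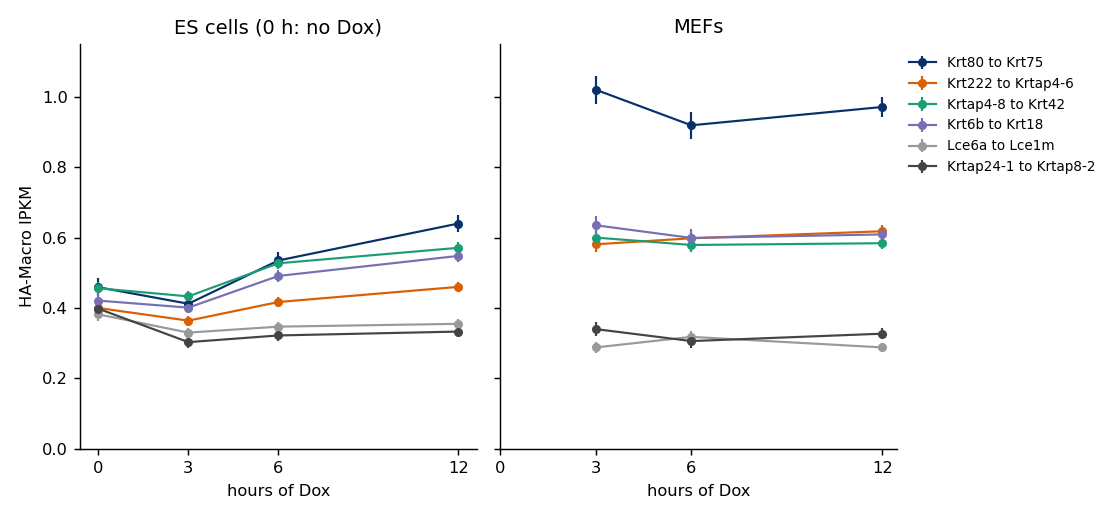
HA-Macro IPKM (y axis) in 6 clusters (colours) by hours of Dox (x axis), in ES cells (left; 0 h is the library without Dox) and MEFs (right), 1 library per point; bars are 95% intervals for counting error. The 4 keratin clusters are higher at 12 h than at 3 h in ES cells, and Krt80 to Krt75 lies at 0.919 to 1.02 in MEFs.

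The Sprr cluster and the Krt80 to Krt75 cluster lay at least 1.5-fold above their flanks in HA-Macro MEF 12 h, as did 5.49% of windows. The latter stood at 0.61 [0.55, 0.66]. The Sprr cluster stood at 1.03 with the repeated stretch and at 0.67 [0.59, 0.76] without it, but the background library also gave 0.44 with the stretch and 0.07 without it. MEFs exceeded ES cells at 12 h by a log2 ratio of 0.60 [0.53, 0.67] in Krt80 to Krt75, 0.42 [0.36, 0.49] in Krt222 to Krtap4-6 and 0.15 [0.09, 0.22] in Krt6b to Krt18, and Krtap4-8 to Krt42 gave 0.03 [-0.02, 0.09], whereas the Lce cluster gave -0.30 [-0.39, -0.22]. Over windows the median was -0.08 and the 95th percentile 0.82, and the 5th percentile was -0.68, with all 5 values between them. At 3 h the ratios were 1.31 in Krt80 to Krt75, 0.67 in Krt222 to Krtap4-6, 0.66 in Krt6b to Krt18 and 0.47 in Krtap4-8 to Krt42. The Lce cluster gave -0.20, and the 95th percentile of windows was 0.99. These rest on the HA-Macro ES 3 h library that stood apart on chromosome Y. With anti-MacroH2A2 the 4 keratin clusters gave 0.01 in Krt80 to Krt75, 0.13 in Krt222 to Krtap4-6, -0.16 in Krt6b to Krt18 and -0.19 in Krtap4-8 to Krt42.

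The sharpest MacroH2A2 signal within the clusters lay in the 22 Krtap genes of chromosome 11, which encode the high-sulphur matrix proteins of hair. Pooled over their bodies they held 2.55 anti-MacroH2A2 IPKM in ES cells and 2.49 in MEFs, against 0.462 and 0.394 over all protein-coding genes. HA-Macro gave 0.861 without Dox, 0.990 at 3 h and 1.38 at 12 h in ES cells, and 2.57 at 12 h in MEFs, against 0.419, 0.506, 0.429 and 0.385 over all genes. HA-H3.3 gave 0.682 at 3 h, against 0.489, and 0.490 at 6 h, against 0.527. So the bodies of these genes were high in MacroH2A2. In H3.3 they were above the average at 3 h and near it at 6 h, and the background library was itself above the average there. They are 0.593 to 1.08 kb long and so lie near the TSS, and the genes were not matched in length. At promoters the anti-MacroH2A2 means were 2.27 in ES cells and 2.29 in MEFs, in intervals per 1000000, against 1.14 and 0.673 over all genes. HA-Macro promoters in ES cells held 0.946 at 3 h and 1.28 at 12 h, against 1.08 and 0.741. In MEFs at 12 h they held 2.37, against 0.609. HA-H3.3 promoters held 0.747 and 0.487, against 1.5 and 2.25. Of the 22 genes only 7 have at most 20% repeated 32-base words. The 19 Krtap genes of chromosome 16 had no such MacroH2A2 level in their bodies. They held 0.605 IPKM in anti-MacroH2A2 ES, 0.487 in anti-MacroH2A2 MEF, 0.513 in HA-Macro MEF 12 h and 0.435 without Dox. Among them Krtap15, a gene of 9.27 kb, had the most intervals of the Krtap family. Its body held 19 and 20 in HA-H3.3, 41 and 48 with anti-MacroH2A2, 38 without Dox, 57, 57 and 70 in HA-Macro ES and 39, 32 and 72 in HA-Macro MEF, with a log2 ratio of MEFs over ES cells at 12 h of -0.13 [-0.62, 0.37].

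Around the TSS the signal was a narrow peak inside the gene. Of the Krtap chromosome 11 genes the bin from 200 to 400 bp after the TSS held on average 4.65 IPKM in anti-MacroH2A2 ES, 4.52 in anti-MacroH2A2 MEF and 4.61 in HA-Macro MEF 12 h. HA-Macro ES held 1.56 at 3 h and 2.36 at 12 h, and 1.10 without Dox. HA-H3.3 ES 6 h held 0.598 in that bin. From 1400 to 1600 bp the anti-MacroH2A2 libraries were back at 0.668 and 0.644. All protein-coding genes held 1.30, 0.705, 0.575 and 2.16 from 200 to 400 bp in the same order of libraries with HA-H3.3 ES 6 h last, so the order of the variants was the opposite. The keratins were in between, with 2.18, 1.24, 1.14 and 0.856.

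**Figure D4:**
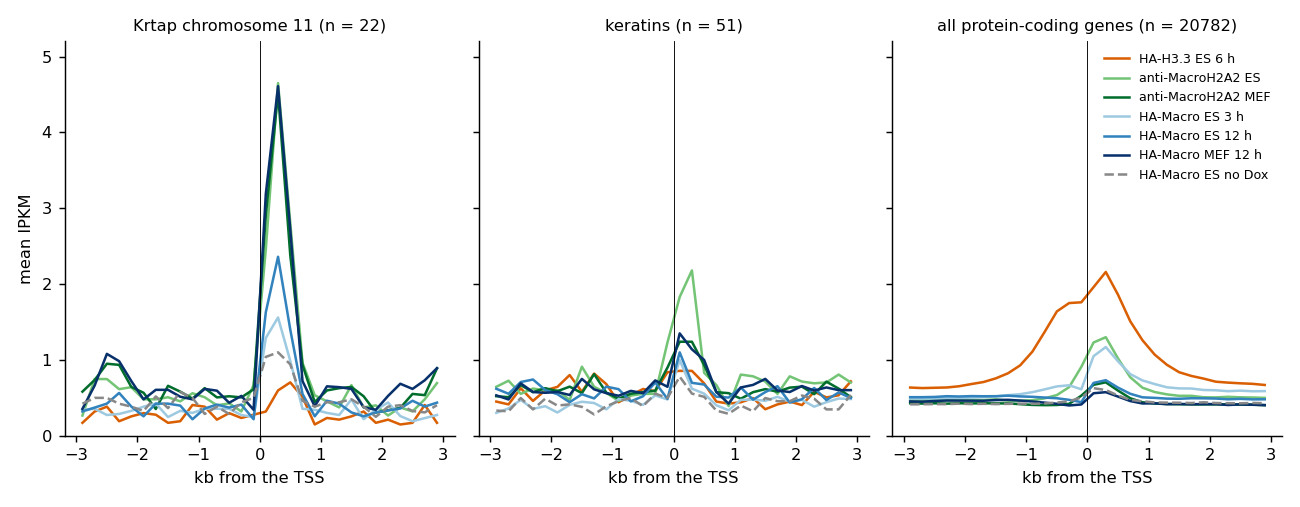
Mean IPKM (y axis) in 200 bp bins by distance from the TSS (x axis) for the Krtap genes of chromosome 11, the keratins and all protein-coding genes outside the 245 windows of 100 kb with the most intervals without Dox, in 7 libraries (colours; dashed, without Dox). The Krtap chromosome 11 genes peak at 4.65, 4.52 and 4.61 in anti-MacroH2A2 ES, anti-MacroH2A2 MEF and HA-Macro MEF 12 h, where HA-H3.3 ES 6 h has 0.598.

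Krtap4-7 (chr11:99504426-99505403), whose promoter above has TATAAA 31 bases before the TSS, held 39 body intervals in anti-MacroH2A2 ES and 103 in anti-MacroH2A2 MEF. HA-Macro gave 14 without Dox, 22, 19 and 24 at 3, 6 and 12 h in ES cells, and 42, 39 and 81 in MEFs. HA-H3.3 gave 10 and 9 at 3 and 6 h. Scaled to depth and length, the 3 HA-Macro MEF libraries held 3.79 to 4.17 IPKM and the 4 HA-Macro ES libraries 1.16 to 1.39. Libraries of different Dox times are not replicates, and how many of all genes separate in this way was not computed. In all 4 of these ES libraries, the background included, the level was nearly the same. Krtap1-4 (chr11:99444376-99444968) held 28 and 54 intervals with the anti-MacroH2A2 antibody, 7 without Dox, 12, 10 and 18 in ES cells and 22, 36 and 74 in MEFs. Its HA-Macro log2 ratio of MEFs over ES cells at 12 h was 1.87 [1.11, 2.70], and that of Krtap4-7 was 1.59 [0.92, 2.31].

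For HA-Macro at 12 h in gene bodies, 111 members had at least 20 intervals in the 2 libraries together, and 19 of them were at least 2-fold higher in MEFs, a rate of 17.1% where 1.45% of 19380 genes and 2.43% of the genes with low CpG were. Without the first 1 kb of each gene 4 of 63 (6.35%) were, where 1.09% of all genes and 1.76% of those with low CpG were. Without members with over 20% repeated 32-base words 9 of 70 were; the share of other genes under that limit was not computed. Of the 111, 3 were at least 2-fold lower, where 5.98% of all genes and 6.15% of those with low CpG were. The median log2 ratio was 0.22 in the members, -0.27 in the genes with low CpG and -0.42 in all genes. Of the 19, 13 were among the 22 Krtap genes of chromosome 11, whose median was 1.14. They divided by position, a split chosen after the values were seen: 11 of 12 in the Krt222 to Krtap4-6 cluster were at least 2-fold higher (median 1.42), and 2 of 10 in the Krtap4-8 to Krt42 cluster (median 0.27), where Krtap9-5 was lower, at -1.21 [-2.14, -0.33]. These genes share sequence, and by the study's methods reads that matched several copies were assigned to one at random. The repeated Sprr stretch was nearly empty in the files of 400 bp intervals and full in those of 150 bp, so whether such reads were treated alike in both is not known, and levels of repeated Krtap genes with HA-Macro (150 bp) and anti-MacroH2A2 (400 bp) may not be comparable. Among the 7 with at most 20% repeated 32-base words, 5 were at least 2-fold higher, with a median of 1.48, while the pair with 0% differed: Krtap17-1 gave 1.48 [0.28, 2.84] and Krtap29-1 gave -0.43 [-1.52, 0.64].

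With anti-MacroH2A2 fewer members were at least 2-fold higher in MEFs, and the members' median lay below 0. The contrast of both antibodies was not tested. Of 90 members with enough intervals in the body, 1 was at least 2-fold higher in MEFs (0.417% of 18244 genes and 0.744% of those with low CpG were) and 4 were lower (9.41% and 7.18%). The median was -0.27 in the members, -0.27 in the genes with low CpG and -0.41 in all genes. For the chromosome 11 Krtap genes the median was -0.12 over 17 genes, 0.14 in the Krt222 to Krtap4-6 cluster and -0.31 in the Krtap4-8 to Krt42 cluster. In the former 7 of 10 ratios (70%) were above 0, where 17.6% of all genes and 26.9% of those with low CpG were, and Krtap4-7 gave 0.60 [0.05, 1.17]. The member that was higher was Lce1h, with 7 intervals in ES cells and 31 in MEFs, 1.34 [0.13, 2.77]. The lowest was Krtap5-2, a gene with 66.5% repeated words, with 20 and 8 intervals, -2.12 [-3.52, -0.88].

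At promoters, counted over 600 bp either side of the TSS, 9 of 114 members were at least 2-fold higher in MEFs than in ES cells with anti-MacroH2A2 (3.8% of 17069 promoters were) and 22 were lower (41.1%). These shares, 7.89% and 19.3%, are near the 7.48% and 24.1% of the promoters with low CpG. The members' median was -0.34, that of the genes with low CpG -0.39 and that of all genes -0.80. The counts behind the extremes were small. Sprr1a, a cornified envelope precursor, had 1 interval in ES cells and 12 in MEFs, 2.78 [0.03, 8.20], and Krt8 had 2 and 16, 2.20 [0.11, 5.36]. The lowest were Lce1i, with 11 and 4 intervals, Lce1b, with 8 and 3, and Krt73, a keratin of the inner root sheath, with 15 and 6.

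**Figure D5:**
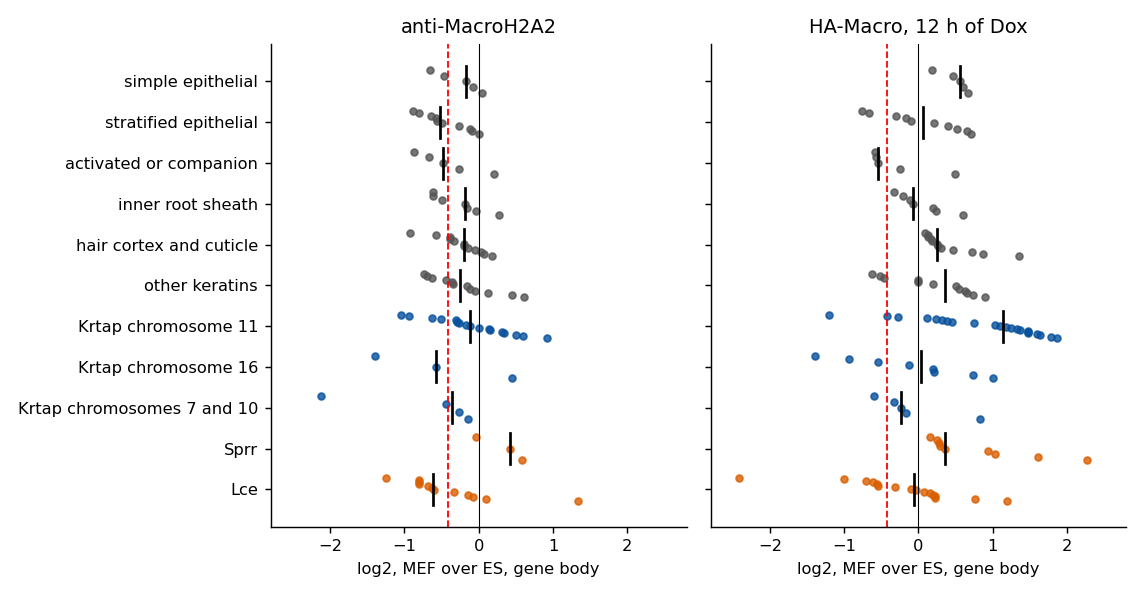
Log2 ratio of MEFs over ES cells in gene bodies (x axis) for members with at least 20 intervals in the 2 libraries together, by group (y axis), with the anti-MacroH2A2 antibody (left) and for HA-Macro at 12 h (right). Black bars are group medians and the dashed red line is the median of all protein-coding genes (-0.41 and -0.42); the Krtap genes of chromosome 11 have medians of -0.12 and 1.14.

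The simple epithelial keratins Krt7, Krt8, Krt18, Krt19 and Krt20 held a pooled 0.861 IPKM of HA-H3.3 in their bodies at 6 h, the highest of the groups, and 0.809 at 3 h. The keratins of stratified epithelia had a pooled 0.847 at 3 h, to which Krt10 contributed 86 intervals at 3.24 IPKM. The medians over genes were 0.829 and 0.701 at 3 h and 1.06 and 0.363 at 6 h in the simple and the stratified keratins. Krt18 (chr15:101858647-101862457) had the highest promoter count of all members, 23 at 3 h and 50 at 6 h, followed at 6 h by Krt17 with 43, Krt222 with 41, its partner Krt8 with 34 and Krt42 with 22. The median promoter of all genes held 19 at 6 h. The first 3 of these are those whose printed stretches hold 7 to 13 CG dinucleotides. Those of Krt8 and Krt42 were not printed, and the relation of CG content to H3.3 over the members was not computed. The body of Krt18 held 26 and 60 HA-H3.3 intervals, and its highest 500 bp bin was the first of the gene, with 31 at 6 h. In the other libraries the Krt18 body held 24 and 43 with anti-MacroH2A2, 18 without Dox, 33, 39 and 38 in HA-Macro ES, and 42, 31 and 68 in HA-Macro MEF.

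Krt10 (chr11:99246568-99250678), the type I keratin of suprabasal epidermis, had the highest body density of HA-H3.3 at 6 h of all 131 members. Its promoter count at 6 h was above the members' median of 4 and just under the all-gene median of 19. Its body held 86 intervals at 3 h and 210 at 6 h, 3.24 and 4.80 IPKM, and its promoter 9 and 17. The highest 500 bp bin lay 3000 to 3500 bp after the TSS, with 40 and 74 intervals. The annotation places a processed transcript, Gm11940, over the same gene body. Anti-MacroH2A2 gave 18 and 18 body intervals, 0.515 and 0.295 IPKM against medians of 0.481 and 0.380 over all genes, with 5 in that same bin, its highest, in ES cells, and HA-Macro 23 without Dox, 52, 35 and 34 in ES cells and 14, 11 and 24 in MEFs. Krt10 was also the lowest member in the HA-Macro ES course, at -0.71 [-1.38, -0.06] for 12 over 3 h.

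Bins were examined in a chosen set of members only, so how common a distant highest bin is was not computed. In several other keratin genes of that set the bin with the most H3.3 at 6 h also lay away from the TSS. Besides those below, Krt1, Krt5, Krt8, Krt14 and Krt79 had it 1000 bp or more after the TSS. In Krt18, Krt222, Krt80 and Krtap4-7 it lay within 500 bp of the TSS, and in Krt17 500 to 1000 bp before it. Krt77 held 60 and 110 HA-H3.3 intervals, with its highest bin 10000 to 10500 bp after the TSS (10 and 33). Krt19, the smallest keratin protein, held 40 and 89, with its highest bin at 3000 to 3500 bp (7 and 24). Krt42, of 6.99 kb, held 68 and 153; its highest bin was at 5000 to 5500 bp at 3 h (11) and past the end of the gene at 6 h (7500 to 8000 bp, 40).

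From 3 to 6 h of Dox, HA-H3.3 was lower over most member bodies with enough intervals, as a share of the library's intervals. Over 23664 windows of 100 kb the median log2 ratio was also below 0, at -0.24, with 30.8% above 0; the keratin clusters lay near it, at -0.18 for Krt222 to Krtap4-6, -0.21 for Krtap4-8 to Krt42, -0.41 for Krt80 to Krt75 and -0.21 for Krt6b to Krt18. Only 49 members had 20 intervals in the 2 libraries together, 48 keratins and Krtap15 of chromosome 16, so that no Sprr, Lce or chromosome 11 Krtap gene was tested. Of the 49, none was 2-fold higher (3.11% of 17910 genes were) and 9 were 2-fold lower, 18.4% where 1.44% of all genes and 3.01% of those with low CpG were. With the higher minimum of 50 intervals 3 of 29 (10.3%) were lower and 0 higher, where 0.545% and 2.54% of all genes were. With the lower minimum of 10 intervals 12 of 73 (16.4%) were lower and 3 higher, where 2.29% and 3.43% of all genes were. The median log2 ratio was -0.55 in the members, -0.00 in the genes with low CpG and 0.17 in all genes. Counting intervals lay wholly below 0 in 26.5% of the 49 members, 18.3% of the genes with low CpG and 13% of all genes. They lay wholly above 0 in 4.08%, 21% and 30.8%. The roles differed in their medians: 0.43 in the simple epithelial keratins, -0.60 in those of stratified epithelia, -0.72 in those of the inner root sheath and -0.75 in those of hair. Of the 5 simple epithelial keratins 4 had ratios above 0, but 0 had a counting interval wholly above 0 and 1 had it below. The lowest was Krt15, a keratin of basal keratinocytes, with 27 and 10 intervals, -2.16 [-3.37, -1.06]. Krt39 had 27 and 14, and Krt2, a keratin of the upper epidermis, had 31 and 20. Krt10 was the highest, at 0.56 [0.20, 0.94].

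In the HA-Macro course in ES cells, 8 of 97 members were at least 2-fold higher in the body at 12 h than at 3 h, 8.25% where 1.31% of 19405 genes and 2.51% of those with low CpG were. None was 2-fold lower, where 16% and 5.04% were. With the 6 h library in place of the 3 h library, the one that stood apart among the HA-Macro libraries on chromosome Y, 5 of 102 members were higher (4.9%, where 0.484% of all genes and 0.898% of those with low CpG were), with medians of 0.19, -0.08 and 0.00. With the higher minimum of 50 intervals 2 of 59 (3.39%) were higher, where 0.586% of all genes and 1.17% of those with low CpG were. The median was 0.29 in the members, 0.11 in the genes with low CpG and -0.25 in all genes. Counting intervals lay wholly above 0 in 15.5% of the 97 members, fewer than the 18.8% of all genes and 26.7% of those with low CpG. They lay wholly below 0 in 1.03%, 45.3% and 21%. At promoters 16 of 118 members were 2-fold higher (6.2% of 20408 were) and 3 lower (29.3%), with medians of 0.32 in the members, -0.09 in the genes with low CpG and -0.53 in all genes. The members' 13.6% higher is near the 11.3% of promoters with low CpG, of which 13.9% were lower against 2.54% of members. With the 6 h library as the early one, 12.7% of members and 7.34% of promoters with low CpG were higher, and 3.39% and 8.49% lower. With the higher minimum of 20 intervals 7 of 69 (10.1%) were higher and 0 lower, where 7.68% and 16.1% of those with low CpG were. By median and by 2-fold shares the genes of low CpG lay between the members and all genes, in bodies and at promoters. Their share of counting intervals wholly above 0 in bodies, 26.7%, was above that of both.

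By role, the body medians for 12 over 3 h were 0.17 in simple epithelial, 0.33 in stratified epithelial, -0.01 in activated or companion, 0.21 in inner root sheath and 0.39 in hair keratins, and 0.43 each in the chromosome 11 Krtap and the Lce genes. Krt14, the type I keratin of basal keratinocytes, held 29 body intervals without Dox and 55, 86 and 104 at 3, 6 and 12 h, 0.83 [0.34, 1.32]. In MEFs it held 30, 28 and 69, and at 12 h it was lower there than in ES cells, at -0.76 [-1.22, -0.31]. Its type II partner Krt5 held 25, then 47, 38 and 54 in ES cells, with a ratio of 0.11 [-0.48, 0.70]. The largest ratios were those of Lce1e, with 6 and 21 intervals, 1.71 [0.36, 3.31], and Krtap4-9, with 14 and 46, 1.62 [0.73, 2.60], and both genes have over 20% repeated words.

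Krt79 and Krt80 were examples with more counts. The promoter of Krt79, a keratin of the sebaceous duct, held 6 intervals without Dox and 14, 26 and 34 at 3, 6 and 12 h in HA-Macro ES, 1.19 [0.25, 2.20]. In MEFs it held 39, 29 and 73, and with anti-MacroH2A2 22 and 54, which scaled to depth is a log2 ratio of MEFs over ES cells of 0.49 [-0.25, 1.28]. The body of Krt80 (chr15:101177875-101200556) held 123 intervals without Dox and 184, 223 and 307 in ES cells, 0.64 [0.38, 0.92]. In MEFs it held 292, 278 and 535. In IPKM the 3 MEF libraries lay at 1.17 to 1.19 and the 4 ES libraries, 1 of them without Dox, at 0.459 to 0.765. Here too the share of all genes that separate in this way was not computed. With anti-MacroH2A2 the direction of the difference was the other, 201 and 274 intervals, or 1.04 in ES cells and 0.815 in MEFs, -0.36 [-0.62, -0.09].

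In MEFs from 3 to 12 h, 1 of 105 members was at least 2-fold higher (0.466% of 18877 genes and 0.685% of those with low CpG were) and 1 was lower (0.593% and 0.665%). The median was 0.01 in the members and -0.00 in all genes. Krtap24-1 was the one that was higher, with 3 and 18 intervals, 1.71 [-0.07, 4.11], and Krtap5-3 the one that was lower, with 20 and 17, -1.11 [-2.14, -0.11].

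Between cell types at 12 h of HA-Macro, all 5 simple epithelial keratins had ratios above 0, with a median of 0.56. Krt7 held 249 intervals in ES cells and 423 in MEFs, 0.60 [0.37, 0.83], and Krt8 held 93 and 154, 0.56 [0.18, 0.95]. With anti-MacroH2A2 1 of the 5 simple epithelial keratins had a ratio above 0, and their median was -0.17. In HA-Macro the hair keratins also had 12 of 12 ratios above 0, 3 of them with the whole counting interval, and a median of 0.25. Of all genes 23.7% and of those with low CpG 32.6% lay above 0. With anti-MacroH2A2 3 of the 12 lay above 0, with a median of -0.20, where 17.6% of all genes and 26.9% of those with low CpG did. The highest HA-Macro ratio was that of Krt81, which has 34.6% repeated words, with 53 and 153 intervals, 1.36 [0.90, 1.84]. The 5 keratins of activated or companion cells had the lowest HA-Macro median, -0.55. Among them Krt17, which responds to injury, held 68 and 52, -0.55 [-1.10, -0.01], and Krt6a, Krt6b and Krt16 have 41.5 to 48.6% repeated words.

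The Sprr and Lce genes were thinly covered. For HA-Macro at 12 h, 9 of 16 Sprr and 16 of 18 Lce gene bodies had enough intervals. The 9 include Sprr2a1, Sprr2a2 and Sprr2a3 of the repeated stretch, with log2 ratios of 0.16, 0.29 and 0.25. Of the Sprr genes 3, none of them in that stretch, were at least 2-fold higher in MEFs, and of the Lce genes 1 was higher and 1 lower, where 1.45% of all genes were higher and 5.98% lower. Sprr1b held 5 intervals in ES cells and 27 in MEFs, 2.27 [0.87, 4.00], and Sprr1a, in the same cluster, held 12 and 41, 1.61 [0.65, 2.67]. In the other libraries Sprr1a held 7 and 8 with HA-H3.3, 20 and 34 with anti-MacroH2A2, 5 without Dox, 10 and 15 at 3 and 6 h in ES cells and 18 and 24 in MEFs. Lce1m, which had the most intervals of the Lce family, held 16 and 41, 1.19 [0.33, 2.12]. Lce3b went the other way, with 19 and 4, -2.41 [-4.43, -0.83]. Sprr1a and Lce1m both have TATAAA 30 bases before the TSS in the printed stretches, and 0 and 2 CG dinucleotides.

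Other genes of cornification were taken from lists. For HA-Macro at 12 h, MEFs over ES cells, 0 of 24 genes of the epidermal differentiation complex with enough intervals were at least 2-fold higher and 2 were lower, with a median of -0.23, where 1.45% of all genes were higher and 5.98% lower and the median was -0.42. Of 7 cornified envelope and cross-linking genes 1 was higher (median 0.17), of 6 desmosome genes 0 (median -0.18) and of 5 transcription factors of epidermis 0 (median -0.19). In the HA-Macro ES course, 4 of 25 genes of the epidermal differentiation complex were 2-fold higher at 12 h (1.31% of all genes were) and 1 was lower (16%), with a median of 0.27, while the factors had 0 higher and 2 lower (median -0.24). At the promoter in HA-H3.3 ES 6 h the members had medians of 5 intervals for hair keratins and chromosome 11 Krtap genes, 3 for Lce and 2 for Sprr genes. The epidermal differentiation complex genes held 0 (Smcp) to 44 (S100a10 and S100a11), the cornified envelope and cross-linking genes 6 to 47 (Tgm1, a transglutaminase), the desmosome genes 5 to 71 (Jup, plakoglobin) and the factors 3 to 58. Of the factors, Grhl3 held 58, Zfp750 57, Ovol1 45 and Klf4 29, and Trp63, the master factor of stratified epithelia, held 3. These counts are at the outermost annotated start of each gene, and promoters inside a gene were not counted. Ivl and Flg, envelope and filament-aggregating proteins of the differentiation complex, held 2 and 11.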

How the data were processed

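ChIP-seq data of 11 libraries were used. The deposited values are genome intervals of aligned reads: the authors collapsed reads by sequence, aligned them to mm9 with Bowtie 1.0, allowing 1 mismatch and, by the methods, placing reads with several matches at random on one of them, and extended them at the 3′ end. By the methods all reads were extended to 150 bp, but the HA-H3.3 and anti-MacroH2A2 files hold intervals of 400 bp, so midpoints lie farther from the read start there, which can shift counts between bins near the TSS. The deposited files hold chromosome, start and end only. Repeats of an interval, 0.462% to 6% of a library, were counted 1 time, and midpoints of distinct intervals were counted in gene bodies, in promoters (600 bp either side of the TSS) and in clusters (members under 100 kb apart), using GENCODE vM1. Counts were scaled to the distinct intervals of the library (IPKM, per kb and 1000000 intervals). Log2 ratios have exact Clopper-Pearson 95% intervals. A gene was called at 2-fold with at least 20 intervals (bodies) or 10 (promoters) in both libraries together, and a cluster at 1.5-fold against flanks of 500 kb on each side, other clusters left out; the same rules over all protein-coding genes and over 24017 windows of 100 kb with at least 20 intervals in the library without Dox gave the background rates. The 245 windows (of 24731) with the most intervals without Dox are the discarded windows; they were left out of ratios between libraries over windows, of the profile of all genes around the TSS and of 2 of the alternatives. No test was run, as each condition has 1 library. Members, gene lists and roles were chosen with earlier results of these data known. Named genes were a fixed list of common keratins of each role, the 3 highest and 3 lowest ratios in each comparison, the member with the most intervals in each of the Krtap, Sprr and Lce families (Krtap15, Sprr2a2 and Lce1m) and the 5 promoters with the most HA-H3.3 at 6 h; Krt77, Krt79, Krtap4-6, Krtap4-7, Krtap4-8, Krtap6-3, Krtap8-2, Krtap11-1, Krtap12-1, Krtap17-1, Krtap20-2, Krtap29-1, Lce6a, Sprr2a1, Sprr2a3 and Sprr4 fall outside it and were chosen after their values or positions were seen. Alternatives changed how intervals were counted and scaled, the minimum, the threshold, the part of the gene, the early time point, the cluster gap and the flanks. Scripts used Python 3.11.15, numpy 2.4.6, pandas 2.3.3 and scipy 1.17.1, and the ratio and call steps were tested on simulated data.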

Additional observations from a re-analysis of the deposited data

Results flagged for a closer look

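The Sprr2a1 to Sprr4 cluster went in opposite directions in the 2 cell types from 3 to 12 h of HA-Macro, with log2 ratios of 0.10 in ES cells and -0.18 in MEFs, each with a counting interval that leaves out 0. The body of Sprr2a3 within it did the same, with 0.24 and -0.34. The difference was not tested, since each cell type has 1 library per time. Over 100 kb windows the ES ratio had a median of 0.06 and quartiles of -0.12 and 0.24. The MEF ratio had a median of -0.00 and 5th and 95th percentiles of -0.22 and 0.19. Both cluster values lay inside these ranges. The cluster and the gene lie in or across the stretch in which nearly all 32-base words occur elsewhere. Without that stretch the cluster gave 0.04 in ES cells and -0.05 in MEFs.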

How the results depend on the processing

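The median of the members kept its sign under each alternative in 6 of the 7 gene body and promoter comparisons; in HA-Macro MEF, 12 h over 3 h, it was 0.01 and lay between -0.05 and 0.02, on both sides of 0. The median of the clusters over their flanks kept its sign for anti-MacroH2A2 MEF, HA-H3.3 ES 6 h and HA-Macro ES 3 h, while that of anti-MacroH2A2 ES lay between -0.23 (genes under 200 kb apart) and 0.14 (divided by the ratio without Dox), so it has no direction. The median of HA-Macro ES, 12 h over 3 h, was 0.19 in gene bodies with the 6 h library in place of the 3 h library and 0.22 at promoters of 1000 bp either side. Of 327 values that answer a comparison, 264 stayed within the margin set for them and 63 moved; of 1571 values of single genes and clusters, 1480 stayed, 89 moved and 2 changed sign. The 2 were the promoter of Lce1m with anti-MacroH2A2, MEFs over ES cells, at 0.01 with 1000 bp either side, and that of Krt6a in HA-Macro ES, at 0.51 with the 6 h library as the early one. The causes were not tested. Counts of members past 2-fold depend on the minimum and the threshold, and small counts move most. Shares of all genes were computed for both minima, without the first 1 kb and with the 6 h library. The other counts below have no such share beside them. With the lower minimum (10 intervals in bodies, 5 at promoters), anti-MacroH2A2 bodies had 4 of 113 members higher and 8 lower in MEFs (1% and 10% of all genes). HA-Macro ES bodies had 13 of 119 higher and 2 lower at 12 h (2.48% and 15.5%), and HA-Macro ES promoters 5 of 129 lower (29%). HA-Macro MEF bodies had 2 of 120 higher and 2 lower (1.3% and 1.29%), and HA-H3.3 bodies 3 of 73 higher (3.43%). With the higher minimum (50 and 20), fewer members were tested, and anti-MacroH2A2 bodies had 0 of 61 higher and 0 lower (0.189% and 8.13% of all genes). Anti-MacroH2A2 promoters had 0 of 64 higher and 10 lower (1.17% and 45.3%), and HA-Macro bodies 1 of 72 lower in MEFs than in ES cells (4.69%). HA-Macro ES bodies had 2 of 59 higher (0.586%), and HA-Macro ES promoters 7 of 69 higher and 0 lower (3.31% and 34.2%). HA-Macro MEF bodies had 0 of 71 higher and 0 lower (0.107% and 0.101%), and HA-H3.3 bodies 3 of 29 lower (0.545%). At 1.5-fold the counts were 4 higher and 24 lower for anti-MacroH2A2 bodies, 15 and 37 for anti-MacroH2A2 promoters, 35 and 11 for HA-Macro bodies in MEFs over ES cells, 27 and 1 for HA-Macro ES bodies, 38 and 8 for HA-Macro ES promoters, 8 and 7 for HA-Macro MEF bodies, and 23 lower for HA-H3.3 bodies. Without the first 1 kb of each gene, which leaves out most Krtap genes, HA-Macro bodies in MEFs over ES cells had 4 of 63 higher in place of 19 and 0 lower (1.09% and 5.11% of all genes). HA-Macro ES bodies had 4 of 60 higher (1.17%), HA-Macro MEF bodies 0 of 56 higher and 0 lower (0.608% and 0.451%), and anti-MacroH2A2 bodies 1 of 58 lower (7.47%). Without members that have over 20% repeated 32-base words, an alternative chosen after seeing the data, HA-Macro bodies had 9 higher in MEFs and anti-MacroH2A2 bodies 0. Promoters of 300 bp either side gave 3 higher with anti-MacroH2A2, those of 1000 bp gave 12 lower there and 9 higher in HA-Macro ES, and 1 interval added to each count gave 10 higher in HA-Macro ES. With the 6 h library as the early one HA-Macro ES bodies had 5 of 102 higher (0.484% of all genes). For the clusters, anti-MacroH2A2 ES had 1 cluster 1.5-fold above its flanks with genes under 50 kb apart, 1 above at the lower threshold, and 1 below with genes under 50 kb apart, with flanks of 250 kb, with flanks of 1 Mb, after division by the ratio without Dox and at the lower threshold. Anti-MacroH2A2 MEF had 1 above without the members in discarded windows, with flanks of 1 Mb and without the repeated Sprr stretch (chosen after seeing the data), 2 above and 1 below at the lower threshold. For the 2 results added after seeing the data, HA-H3.3 ES 6 h had 3 below with genes under 200 kb apart, since fewer and larger clusters remain. HA-Macro ES 3 h had 5 below with flanks of 1 Mb and at the lower threshold, and 1 above at the lower threshold. Leaving out a replicate could not be done, as each condition has 1 library. No paired analysis was possible because no test was made and each condition has 1 library. By the methods the plates of an ES time course were split from a shared culture.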
